A study of Rattus norvegicus with 29 samples.

Results

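The genes described here encode the proteins of the cytosolic ribosome, whose messages were measured in the shell of the nucleus accumbens, a part of the ventral striatum, in P (alcohol-preferring) rats. They were chosen by symbol: a probe set belonged to them when the platform's annotation gave it a single gene symbol made of Rpl, Rps or Rplp and a number, the S6 kinases being left out, and each gene was represented by its brightest probe set over all 29 arrays. The rule gave 49 genes, on 54 probe sets, of the 14217 genes that the array names singly. The pattern also took in close paralogs and pseudogenes, such as Rps27l, Rpl26l1 and Rpl37-ps2, and it missed some ribosomal proteins, among them Rplp1, Rplp2, Rps27a and Rps4x, which have no probe set with a single symbol. Of the 49 genes, 43 passed the filter on dim probe sets and were tested.

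The groups were rats with limited access to ethanol (n = 10), rats with continuous ethanol (n = 10) and rats that had water only (n = 9). All groups were P rats, a line bred for voluntary ethanol drinking, so no comparison with a non-preferring line was possible, and the labels state no length of exposure, age or sex. Nothing in the labels ties each array to its own animal; the p-values therefore refer to the spread among these samples, some of which may be technical. Values are log2 expression values of the deposited table, on which a difference of 0.1 is a change of 7.18% and a difference of 0.2 a change of 14.9%.

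A cytosolic ribosome consists of a small subunit, which reads the messenger RNA, and a large subunit, which joins amino acids, and the proteins of both are needed in equal numbers beside the ribosomal RNAs. Their messages are among the most abundant of any cell, and many begin with an unbroken stretch of pyrimidines, the 5' terminal oligopyrimidine motif, through which the mTOR pathway controls how strongly they are translated. In neurons ribosomes occur in the cell body and in dendrites, and in the striatum phosphorylation of ribosomal protein S6 is widely used as a readout of neuronal activity. Arrays measure the amount of message only, and neither its translation nor the amount of ribosomes.

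The start sites of several genes show the feature that defines this class of messages. In the promoter windows of RefSeq (assembly GRCr8), which held 40 of the 49 genes, 11 (27.5%) had an annotated transcript start at C followed by at least 4 bases that are each C or T, read on the sense strand only, against 854 of 27457 genes of that table (3.11%). An unbroken run of 8 or more pyrimidines stood in the 30 bases around the start of 23 of the 40 genes (57.5%), against 12.7% of all genes in the table. The windows of 6 genes are printed to show both kinds, because their genes are named in the comparisons that follow; each holds 15 bases before and 15 from the start site, and capitals mark an unbroken pyrimidine run that passes through the start. The first 4 have the pyrimidine start, and Rpl21 and Rpl13a lack it at the annotated position.
Rpl22, chr5:168117946-168117975, plus strand: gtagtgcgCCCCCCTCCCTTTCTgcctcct
Rpl35a, chr11:81235007-81235036, minus strand: gcgggtcttgCCTTCCTCTTTCCgccatct
Rps3a, chr2:173827028-173827057, minus strand: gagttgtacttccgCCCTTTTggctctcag
Rplp0, chr12:46718376-46718405, minus strand: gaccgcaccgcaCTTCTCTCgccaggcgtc
Rpl21, chr12:13386139-13386168, minus strand: ttcctttccgccggggcagccatcttccag
Rpl13a, chr1:104748899-104748928, minus strand: cctcttcctttcctaggcggctgccgaaga
An annotated start can lie some bases from the start used in this tissue, so a missing match says only that these letters are not at this position.

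The tissue carried the messages of its labelled region: 9 of 10 markers of striatal projection neurons were tested and had mean values of 9.96 to 13.5. Of the markers of cortical excitatory neurons, 4 of 5 were tested, with mean values of 7.12 to 11.4. The average log2 deviation of 2 choroid plexus and ependyma markers was 4.03 on limited replicate 9 and 1.92 on continuous replicate 10. The part of such tissue in the ribosomal protein values was not tested. Comparison of 7 array measures between groups by exact two-sided permutation tests left no difference past the threshold after adjustment over the 7, though some had a small p. The SD of the log2 values of an array was 2.18 ± 0.01 with continuous ethanol and 2.16 ± 0.02 with water (exact permutation p = 0.0155, adjusted p = 0.0744). For beta-actin the excess of 3 prime over 5 prime signal, which reflects the integrity and labelling of RNA, was 1.27 ± 0.08 with continuous ethanol and 1.20 ± 0.05 with water (exact permutation p = 0.0213, adjusted p = 0.0744). One array of the continuous group, replicate 7, stood apart in astrocyte and microglia scores and in the ribosomal protein genes, as described after the comparisons. Limited replicates 6 and 7 and water replicates 2, 5 and 6, 5 arrays in all, lay apart from the others on the second principal component of all probe sets. Counts and median changes of the ribosomal protein genes are given with and without continuous replicate 7, the 5 arrays and water replicate 9. Those of other gene lists are given with all arrays only.

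Most of the tested members were bright and steady. Mean values were above 13 for 37 of the 43 tested genes, and the SD within groups had a median of 0.063 over the 43, against 0.118 over all 21729 probe sets tested. Among probe sets with means above 13 the difference was small, though brightness was not matched further: the 37 bright members had a median SD of 0.061, and the other 483 probe sets had 0.068. Rps29 (SD 0.028), Rpl37a (0.031), Rpl27a (0.037) and Rpl41 (0.040) varied least. Rpl41 encodes the shortest protein of the ribosome. The 4 most variable were Rps4y2 (0.227), Rpl37-ps2 (0.155), Rps27l (0.152) and Rpl13a (0.107), of which the first 3 had means under 10. Probe brightness depends on the probe as well as on the message, so levels of different genes were not compared.

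**Figure D1:**
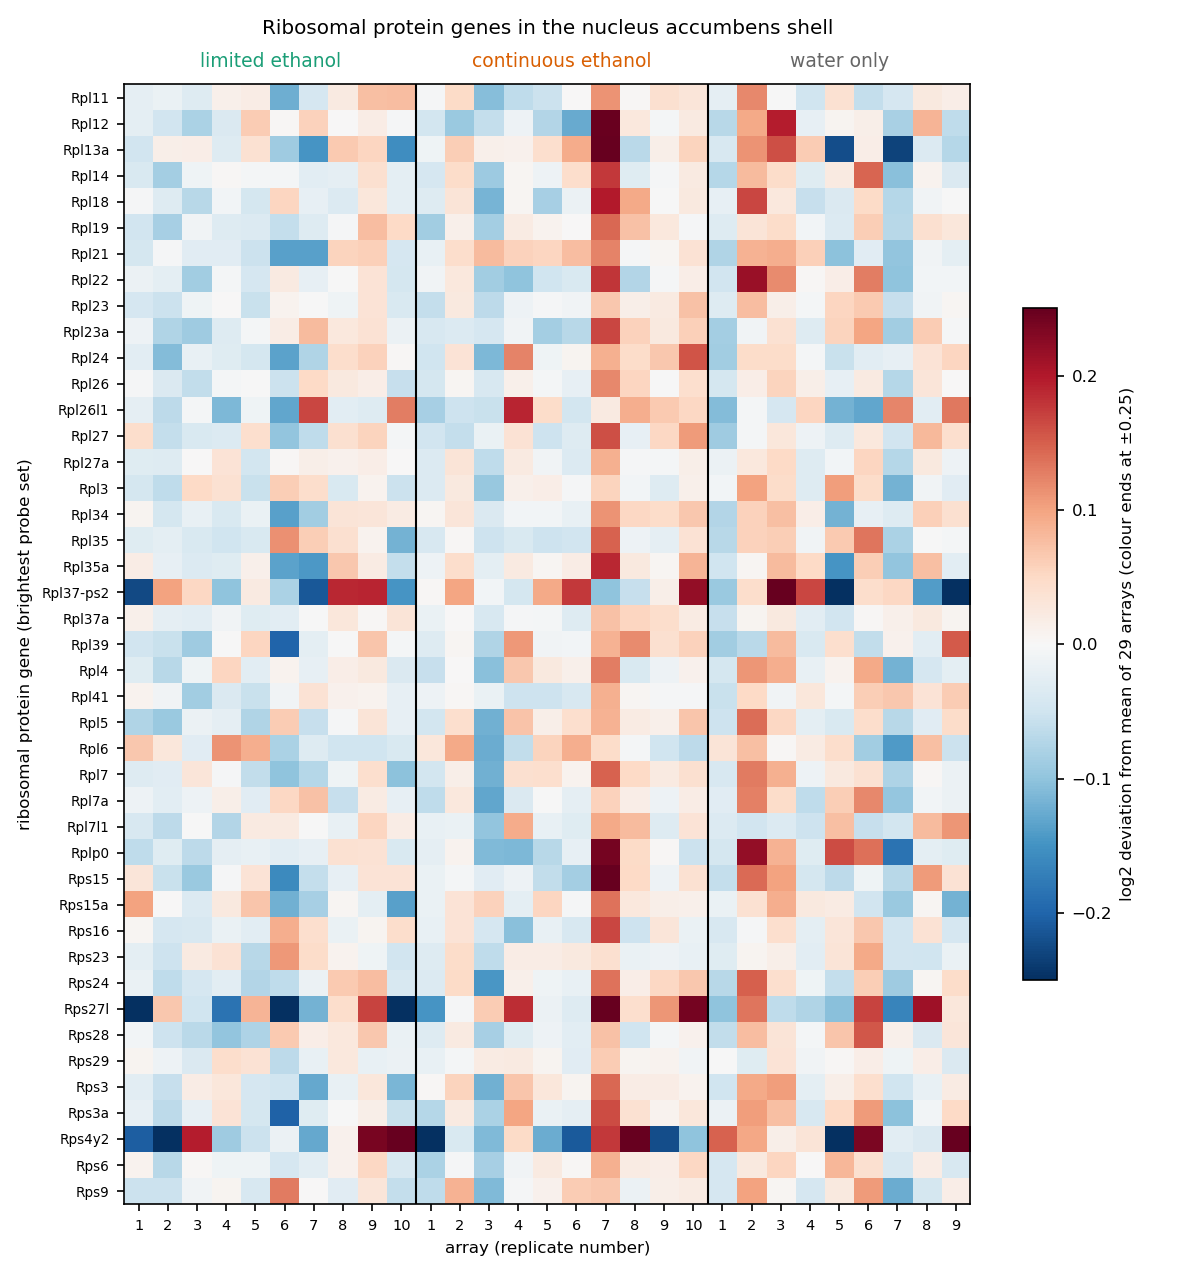
Log2 deviation of each of the 43 tested ribosomal protein genes (down the page) from its mean over 29 arrays, for every array (across) of the limited ethanol, continuous ethanol and water only groups, with the colour scale ending at 0.25 in both directions. Continuous replicate 7 forms a column in which 42 of 43 genes lie above their mean.

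With continuous ethanol, no ribosomal protein gene passed the test against water. Over all probe sets the same comparison called 33, or 0.152%, at an adjusted p under 0.05 (limma, Benjamini-Hochberg over all 21729). Of the 43 members 25 were higher and 18 lower, where 47.5% of all probe sets were lower. At an unadjusted p under 0.05 there were 0 members in either direction, where all probe sets had 9.62% higher and 6.48% lower. The smallest adjusted p was 0.380. The median change of the members was 0.0045, and that of all probe sets tested 0.0047; changes ran between -0.14 (Rps4y2) and 0.08 (Rpl13a). The median was 8.4e-05 with the 3 prime to 5 prime signal as a covariate and -0.0025 with the SD of the array as one. In bulk tissue, fewer cells of a type and less message per cell cannot be told apart. The 95% interval of the change lay wholly within 0.1 of zero for 29 of the 43 members and within 0.2 for 40, whereas of all probe sets tested 11.7% and 64.3% had intervals within these bounds. The standard error of a member was 0.032 at the median, against 0.053 for all probe sets.

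Rpl21, a protein of the large subunit, had the smallest p of this comparison. Its values were 13.48 at the lowest, 13.55 at the median and 13.62 at the highest with continuous ethanol, against 13.40, 13.47 and 13.59 with water. The ranges overlapped, 9 of 10 continuous arrays lay above the water mean, and the change was 0.06 ± 0.03 (SE; adjusted p = 0.380, limma). Rpl13a, a large subunit protein that in human monocytes also silences inflammatory messages after release from the ribosome, had 13.42, 13.52 and 13.80 with continuous ethanol, against 13.26, 13.45 and 13.65 with water. Here too 9 of 10 continuous arrays lay above the water mean while the ranges overlapped, and the change was 0.08 ± 0.05 (adjusted p = 0.416). The highest value was that of continuous replicate 7, without which the change was 0.05. Rps15a and Rpl35a, proteins of the small and the large subunit, differed by 0.04 each, with 8 of 10 continuous arrays above the water mean (adjusted p = 0.553 and 0.569).

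Among members with lower values, Rps28, a small subunit protein near the messenger RNA exit, had 13.69, 13.75 and 13.85 with continuous ethanol, against 13.71, 13.80 and 13.93 with water. The ranges overlapped, 9 of 10 continuous arrays lay below the water mean, and the change was -0.04 ± 0.03 (adjusted p = 0.464). The same count held for Rpl41, with a change of -0.03 (adjusted p = 0.496), and for Rpl22, an RNA-binding protein of the large subunit that is known for its role in T cell development, with -0.05 (adjusted p = 0.509). Rps4y2 had the widest difference, -0.14 ± 0.10 (adjusted p = 0.489), on values that spread by 0.20 with continuous ethanol and 0.24 with water (SD).

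Limited access gave no call either. Against water 0 members passed, as did 0% of all probe sets, and 0 members had an unadjusted p under 0.05, with 2.10% of all probe sets higher and 2.34% lower at that level. The smallest adjusted p of a member was 0.972 (limma). Most members were slightly lower: 38 of 43, where 49.5% of all probe sets were lower. Their median change was -0.024, beside 0.00072 for all probe sets, with a range between -0.087 (Rps27l) and 0.0056 (Rpl6). Intervals lay within 0.1 of zero for 30 members and within 0.2 for 41, against 14.5% and 74.8% of all probe sets. The 43 values are no independent observations, since members varied together from array to array, and this comparison shares its water arrays with the one before.

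The count of lower members moved with a few arrays. Without the 5 arrays that lay apart on the second component it was 25 of 43, with a median of -0.0038. With the 3 prime to 5 prime covariate 38 of 43 were lower, with a median of -0.015. The astrocyte score is the average over 6 markers of the log2 deviation from their 29-array means. In the full set it was -0.03 ± 0.03 with limited access (range -0.09 to 0.02) and 0.03 ± 0.07 with water (SD, range -0.07 to 0.16). The exact permutation p was 0.0224 and the adjusted p 0.157. All 6 of the 6 astrocyte markers listed were tested, with mean values of 8.40 to 14.2. By the same test the leptomeningeal score was -0.07 ± 0.36 with limited access and 0.22 ± 0.43 with water (adjusted p = 0.389). The microglia score was 0.0019 ± 0.087 and -0.0047 ± 0.13 in the same order (adjusted p = 0.897). The part of these markers in the lower ribosomal protein values was not tested.

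Rps3a, a small subunit protein that contacts initiation factors, had the smallest p against water. Its values were 14.28, 14.46 and 14.52 (lowest, median, highest) with limited access, against 14.38, 14.53 and 14.59 with water. The ranges overlapped, 9 of 10 limited arrays lay below the water mean, and the change was -0.06 ± 0.03 (adjusted p = 0.972). Rps3, which lies where messenger RNA enters the small subunit, had 14.15, 14.25 and 14.31 with limited access, against 14.23, 14.30 and 14.39 with water, a change of -0.05 (adjusted p = 0.972). Rpl7 differed by -0.05 and Rpl41 by -0.04, both at the same adjusted p. Rpl22 lay below the water mean in 10 of 10 limited arrays, with 13.15, 13.22 and 13.27 against 13.14, 13.24 and 13.45 with water; the limited values lay inside the range of the water values, and the change was -0.05 ± 0.04 (adjusted p = 0.972). The 4 positive changes named by rule, of Rpl6, Rps23, Rps16 and Rpl37a, were between 0.0020 and 0.0056 and changed sign when single arrays were left out.

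Set against each other, the 2 ethanol groups differed at 1 probe set in the whole table (0.00460%), and that was no ribosomal protein gene. Of the 43 members 36 were lower and 7 higher with limited access than with continuous ethanol, where 53.4% of all probe sets were lower. The median was -0.022, beside -0.0053 for all probe sets. At an unadjusted p under 0.05 there were 3 lower (6.98%) and 0 higher members, where all probe sets had 5.74% lower and 3.56% higher. The members' share is close to that background. The excess of 3 prime over 5 prime signal of beta-actin had a small unadjusted p in the same comparison, at 1.17 ± 0.09 with limited access and 1.27 ± 0.08 with continuous ethanol (SD; exact permutation p = 0.0146, adjusted p = 0.102). With the mean of this measure for beta-actin and GAPDH as a covariate, 0 members had an unadjusted p under 0.05, 31 of 43 were lower, the median was -0.014 and the smallest adjusted p was 0.986. Their smallest adjusted p was 0.526, and intervals lay within 0.1 of zero for 27 members and within 0.2 for 41, against 15.5% and 70.8% of all probe sets. Without continuous replicate 7, 27 of 43 were lower, with a median of -0.0076.

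The 3 members of small p were Rpl21, Rps27l and Rpl24. Rpl21 had 13.36, 13.46 and 13.56 with limited access, against 13.48, 13.55 and 13.62 with continuous ethanol. In all, 8 of 10 limited arrays lay below the continuous mean, the ranges overlapped, and the change was -0.08 ± 0.03 (p = 0.0143, adjusted p = 0.526, limma). Rps27l, a paralog of Rps27 that is a target of p53 in human cells, had 6.90, 7.14 and 7.40 with limited access, against 7.08, 7.28 and 7.58 with continuous ethanol. The same 8 of 10 count held, with overlapping ranges, and the change was -0.16 ± 0.07 (p = 0.0204, adjusted p = 0.526). Rpl24, a protein of the large subunit that reaches towards the small one, had 13.52, 13.63 and 13.71 with limited access, against 13.55, 13.70 and 13.81 with continuous ethanol, a change of -0.07 ± 0.03 (p = 0.0427, adjusted p = 0.534). Rps3 followed with -0.06 (adjusted p = 0.542).

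On the positive side, Rps4y2 differed by 0.06, and Rpl7a, Rps16 and Rpl12 by 0.01 each, all at adjusted p of 0.872 or more. The changes of Rpl7a, Rps16 and Rpl12 changed sign under some alternatives. A test for any difference among the 3 groups called 0 members, beside 18 probe sets of the whole table (0.0828%). One member, Rpl21, had an unadjusted p under 0.05 in it (p = 0.0413, adjusted p = 0.422), where 11.6% of all probe sets had one.

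**Figure D2:**
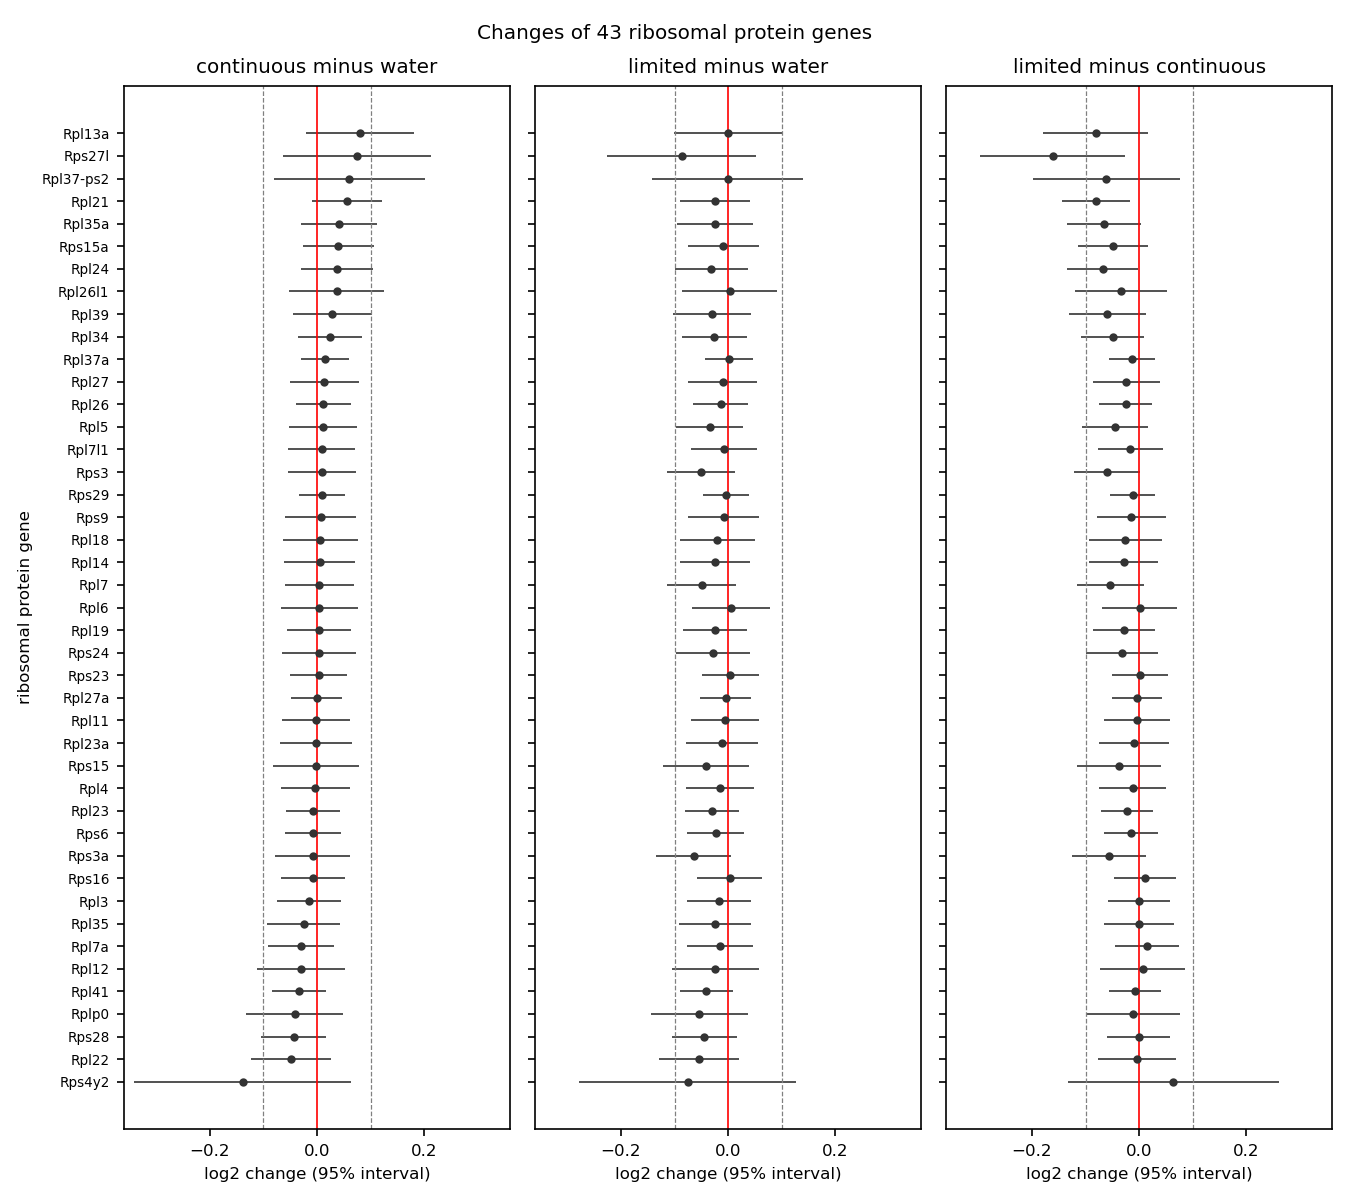
Log2 change of each of the 43 tested ribosomal protein genes (points) with its 95% interval (bars) for continuous ethanol minus water, limited ethanol minus water and limited minus continuous ethanol, with dashed lines at 0.1 on either side of zero. Genes run down the page by their change with continuous ethanol, and most intervals stay between the dashed lines.

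Counts were alike in both subunits. With continuous ethanol 18 of 30 large subunit genes were higher than with water and 7 of 13 small subunit genes, with medians of 0.0046 and 0.0030. With limited access 27 of 30 and 11 of 13 were lower than with water, with medians of -0.022 and -0.028. Against continuous ethanol the limited group was lower in 26 of 30 and 10 of 13, with medians of -0.023 and -0.015. By start site, the 10 tested genes with a pyrimidine start had median changes of 0.00071 for continuous ethanol against water, -0.028 for limited access against water and -0.033 for limited against continuous, and the 26 without it 0.0035, -0.018 and -0.016. No test was run on these groups.

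Rplp0, the base of the acidic stalk that recruits elongation factors, had 13.44, 13.48 and 13.54 with limited access, 13.39, 13.49 and 13.74 with continuous ethanol and 13.32, 13.48 and 13.73 with water. The ranges overlapped, and the limited arrays spanned the narrowest range. The changes against water were -0.05 ± 0.04 with limited access and -0.04 ± 0.04 with continuous ethanol. Rps6, the substrate of the S6 kinases, had 14.40, 14.46 and 14.53 with limited access, 14.39, 14.48 and 14.56 with continuous ethanol and 14.43, 14.49 and 14.56 with water. Its changes against water were -0.02 ± 0.03 and -0.01 ± 0.03, in the same order of groups; phosphorylation of the protein, which is what activity studies read, was not measured. Rpl39, an X-linked gene for a small protein of the exit tunnel, averaged 8.85 ± 0.08 with limited access, 8.91 ± 0.06 with continuous ethanol and 8.88 ± 0.08 with water (SD), differences no larger than the spread within groups.

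Paralogs carried in by the symbol rule were followed beside their parent genes. Rpl7l1, whose product is related to Rpl7, had changes of -0.01 with limited access and 0.01 with continuous ethanol against water, where Rpl7 had -0.05 and 0.0045. More than 1 probe set was present for 5 genes. The brighter and dimmer probe sets of Rps24 differed most, by 0.12 in the change between the ethanol groups: the brighter gave -0.03 and the dimmer, at a mean of 7.59, -0.15 for limited against continuous ethanol. The widest range between the probe sets of a gene, over the 3 comparisons, was 0.085 for Rpl3 (continuous ethanol against water), 0.061 for Rpl7 (limited access against water) and 0.059 for Rpl14 (limited against continuous ethanol, its second probe set being too dim for the test). No tested probe set of the 5 genes passed the threshold in any comparison.

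Rpl28, Rpl30, Rpl39l1, Rpl3l, Rps13 and Rps4x-ps1, 6 members in all, were too dim for the test, with mean values of 4.61 to 6.78. Rpl28, Rpl30 and Rps13 encode ribosomal proteins of every cell, and why their probe sets were dim was not tested. When the filter was lifted, Rpl3l, a paralog of Rpl3 known from striated muscle, had 6.06, 6.17 and 6.43 with limited access, 5.85, 6.01 and 6.23 with continuous ethanol and 5.98, 6.17 and 6.46 with water. The limited values lay above the continuous mean in 10 of 10 arrays, with overlapping ranges, and the change between the ethanol groups was 0.16 (p = 0.00720, adjusted p = 0.507, limma). Continuous ethanol against water gave -0.14 (adjusted p = 0.259). Rpl28 differed by -0.14 between limited access and water (p = 0.0442, adjusted p = 0.989).

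What the members shared most was their variation from array to array within groups. After the group means were taken off, the correlation of a pair of members over the 29 arrays had a median of 0.415, and 90.5% of pairs were positive. The 37 members with means above 13 had a median of 0.504, the other 483 probe sets of that brightness 0.068 and all probe sets tested 0.002. These correlations are descriptions: all values of an array share its tissue piece, its labelling and its normalization. Leaving out continuous replicate 7 gave medians of 0.322 for the 43 members and 0.392 for the 37 bright ones.

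The mean deviation of the 43 members from their means over all arrays lay at -0.046, -0.023 and 0.040 (lowest, median, highest) with limited access, at -0.063, 0.011 and 0.129 with continuous ethanol and at -0.065, 0.013 and 0.070 with water. The groups overlapped, and the number of members above their mean on an array ran between 5 and 38, between 4 and 42 and between 2 and 38 in the same order of groups. Continuous replicate 7 was the highest, with 42 of 43 members above their mean. In 26 of 43 members (60.5%) its value was the highest of all 29 arrays, as it was in 2403 of 21729 probe sets tested (11.1%).

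The same array was high in most astrocyte markers and some microglia markers, and not in oligodendrocyte markers. Csf1r, Cx3cr1 and Itgam, of the microglia list, lay inside the range of the other arrays. The highest of the 29 values lay on it for 5 of 6 astrocyte markers and 3 of 6 microglia markers, and for 0 of 9 striatal neuron, 0 of 4 cortical neuron, 0 of 8 endothelial and mural, 0 of 10 leptomeningeal and 0 of 5 oligodendrocyte markers. Gfap, the intermediate filament of astrocytes, was 13.96 on it, against 13.13 to 13.63 on the other arrays, and C1qa, a complement component made by microglia, was 11.67, against 10.84 to 11.48. Its astrocyte score was 0.306 and its microglia score 0.356, while the other continuous arrays lay between -0.07 and 0.04 and between -0.14 and 0.07. Other measures also set it at an end of its group: the striatal neuron score was -0.242, against -0.234 to 0.080 on the other continuous arrays, and the 3 prime minus 5 prime signal of GAPDH was -0.027, against -0.204 to -0.106. Its leptomeningeal score was 0.657, against -1.64 to 0.352 on the other continuous arrays, and its oligodendrocyte score -0.115, against -0.091 to 0.099. Its median correlation with the other arrays, 0.987, was the lowest of its group. In the other groups, limited replicate 6 (0.986) and water replicate 9 (0.982) had lower ones. The part of astrocyte and microglia messages, tissue composition and RNA quality in the ribosomal protein values of continuous replicate 7 was not tested. Without this array the members' median change for continuous ethanol against water was -0.0098, with 29 of 43 lower in place of 18, 1 of them at an unadjusted p under 0.05 (Rpl22, -0.07, adjusted p = 0.275).

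**Figure D3:**
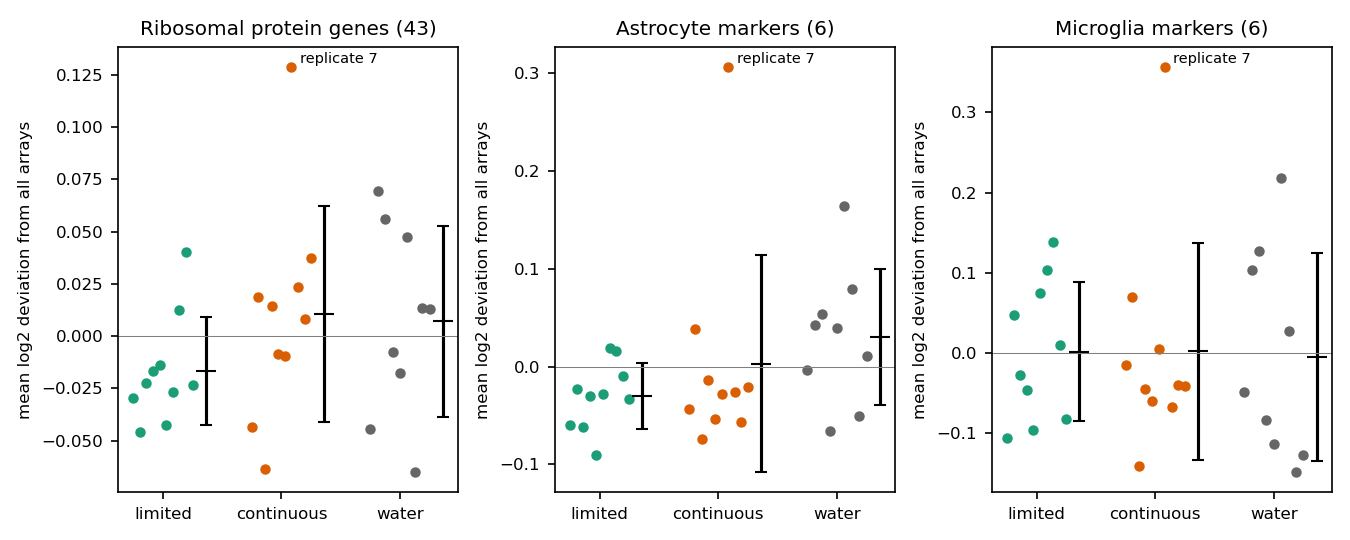
Average log2 deviation from the 29-array mean, per array (points), of the 43 ribosomal protein genes, 6 astrocyte markers and 6 microglia markers, for the limited, continuous and water groups, with group means and SD beside the points. Continuous replicate 7 lies at 0.129, 0.306 and 0.356, above every other array in each panel, and the groups overlap otherwise.

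Among 11285 other genes, those whose deviations from group means ran most like the members' mean were Cyb5a (r = 0.896), Casp1 (r = 0.892), Cd53 (r = 0.882), Pfdn5 (r = 0.859) and B2m (r = 0.857), over 29 arrays. Cyb5a encodes cytochrome b5, Casp1 the inflammatory caspase that matures interleukin-1 beta, Cd53 a tetraspanin of leukocytes, Pfdn5 a subunit of the prefoldin chaperone and B2m the light chain of MHC class I. All 5 were highest on continuous replicate 7; Cd53, for example, was 10.11 there, against 9.19 to 9.85 elsewhere. Over the 28 remaining arrays the correlations were 0.855, 0.851, 0.821, 0.796 and 0.799, and Cyb5a, Casp1 and Cd53 kept the first 3 places.

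Other parts of the translation system were described from gene lists, none of which had a gene past the threshold in any comparison. Their counts by direction stand beside 47.5% of all probe sets lower with continuous ethanol than with water. For limited access against water 49.5% were lower, and for limited against continuous ethanol 53.4%. Mitochondrial ribosomal protein genes, which serve the separate ribosomes of mitochondria, were higher with continuous ethanol than with water in 59 of 73, with a median of 0.048, and 17 (23.3%) had an unadjusted p under 0.05, all higher, beside 9.62% of all probe sets higher at that level. Mrps31 had the smallest p, at 10.23 ± 0.05 with continuous ethanol and 10.11 ± 0.08 with water (SD), a change of 0.12 ± 0.03 (SE; adjusted p = 0.127, limma), and Mrps28 followed with 0.11 (adjusted p = 0.158). With limited access 59 of 73 were also higher than with water, with a median of 0.029 and 2 (2.74%) higher at that level, beside 2.10% of all probe sets. The cytosolic genes had a median of 0.0045 with continuous ethanol and 0 of 43 at that level; the difference between the 2 lists was not tested.

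Ribosome biogenesis genes, which process ribosomal RNA and assemble subunits, were higher with continuous ethanol than with water in 24 of 29, with a median of 0.040 and 9 (31.0%) higher at an unadjusted p under 0.05, beside 9.62% of all probe sets. Nmd3, the export adaptor of the large subunit, differed by 0.14 (adjusted p = 0.185), and Rrs1, an assembly factor, by 0.17 (adjusted p = 0.186). Initiation factors were higher in 31 of 41, with a median of 0.038 and 5 higher (12.2%) and 1 lower (2.44%) at that level, beside 9.62% and 6.48% of all probe sets. Eif2s1, the alpha subunit of the factor that carries the initiator tRNA, was 11.20 ± 0.09 with continuous ethanol and 11.03 ± 0.12 with water, a change of 0.17 ± 0.05 (adjusted p = 0.136), and Eif2s3y, a gene for the gamma subunit of the same factor, differed by 0.23 (adjusted p = 0.157). Between the ethanol groups, 7 of 41 initiation factors (17.1%) and 6 of 29 biogenesis genes (20.7%) were lower with limited access at an unadjusted p under 0.05, beside 5.74% of all probe sets.

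The remaining lists were smaller. Of 11 other messages known to carry the pyrimidine motif, 7 were higher with continuous ethanol than with water and 2 with limited access, with medians of 0.018 and -0.013. Eef1b2, an exchange factor subunit of elongation, differed by 0.07 with continuous ethanol (adjusted p = 0.402). A list of 7 genes was taken by their Eef1 and Eef2 symbols, and not by the function of each product in elongation. It shares Eef1a1, Eef1b2, Eef1d, Eef1g and Eef2 with the motif list, so the directions of these lists are no separate observations. The motif list was also drawn up with some initiation and biogenesis genes. Of the 7 genes, Eef1e1 had the smallest p, with a change of 0.17 ± 0.05 with continuous ethanol against water (adjusted p = 0.154). Between the ethanol groups all 7 genes of this list were lower with limited access, 2 of them (28.6%) at an unadjusted p under 0.05, beside 5.74% of all probe sets. Of 11 genes of RNA polymerase I and its factors, which make ribosomal RNA, Polr1c differed by 0.11 with continuous ethanol against water (adjusted p = 0.198). In the same comparison, 20 genes of mTOR and S6 kinase signalling included Sesn1, an inhibitor of mTOR complex 1 signalling, with -0.11 (adjusted p = 0.183). Rheb, the small GTPase that activates the complex, differed by 0.09 with continuous ethanol against water (adjusted p = 0.209). Of 8 regulators of ribosomal protein gene transcription and surveillance, 2 were higher with continuous ethanol than with water at an unadjusted p under 0.05, beside 9.62% of all probe sets: Mycn, by 0.14, and Gabpa, by 0.16 (adjusted p = 0.267 and 0.296). Rpsa and Rack1 are ribosomal proteins whose symbols fall outside the rule. With continuous ethanol 1 was higher than with water and 1 lower, with a median of -0.0042.

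**Figure D4:**
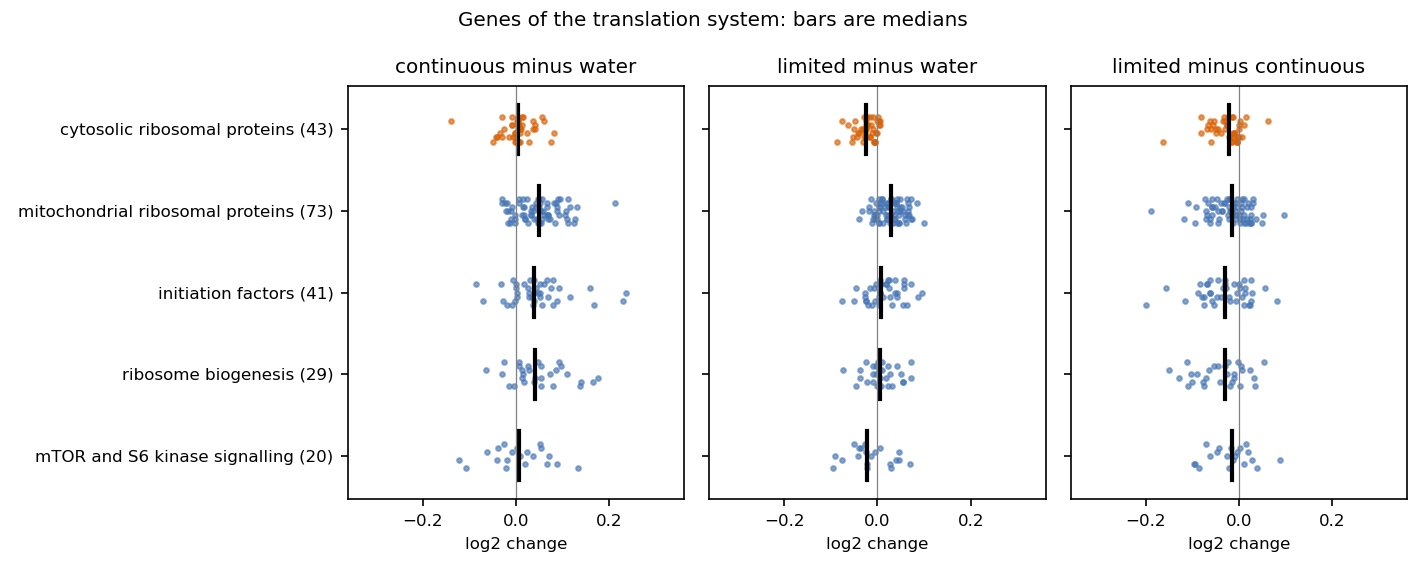
Log2 change of each tested gene (points) and the median (bar) of 5 gene lists of the translation system, for continuous ethanol minus water, limited ethanol minus water and limited minus continuous ethanol. In the first panel the cytosolic ribosomal protein genes have their median at 0.0045, and the mitochondrial ribosomal, initiation and biogenesis lists have theirs at 0.048, 0.038 and 0.040.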

How the data were processed

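RNA of the nucleus accumbens shell was measured on 29 Affymetrix arrays, 10 with limited access to ethanol, 10 with continuous ethanol and 9 with water. The deposited values are log2 expression values that the authors made with RMA, per the submitters' processing notes, and whose range fits base 2. RMA removes background, gives the probe intensities of all arrays 1 distribution and then combines a set's probes into 1 value. A change shared by all messages would therefore not be seen. The combined values need not share 1 distribution, and their SD per array ran between 2.13 and 2.20. The RMA version and any batches are not given in the sources used here, and the number of arrays limits the precision.

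From these values the 57 control probe sets and the dimmest 30 percent by mean over all arrays (mean at or below 6.86) were left out, and 21729 of 31099 probe sets were tested. One limma 3.58.1 model (statmod 1.5.0, R 4.3.3) was fitted to all arrays with group as its only factor. Tests were two-sided, with Benjamini-Hochberg adjustment over all 21729 probe sets and a threshold of 0.05, and the fit was tested on simulated data. Every adjusted p of a gene is from limma. Arrays of the first group above or below the mean of the second group were counted. Array measures were compared by exact permutation tests in scipy 1.17.1, and other tables were made with pandas 2.3.3.

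The members, gene lists and naming rules were chosen with earlier results of these data known. Members were named where they were among the 4 of smallest p in each direction of a comparison, among the 4 most or least variable, among those with the widest range between probe sets, or in a set of special roles; in other lists, the 2 of smallest p against water or between ethanol groups could be named. A further 36 probe sets of ribosomal protein symbols matched several genes and were no members. No gene ID of the RefSeq table matched 2 members. Alternatives were other filters, normalizations, priors, weights, covariates, probe set choices and member lists, the replicate number as a block, and leaving out arrays. Leaving out water replicate 9 was planned. Leaving out the 5 arrays apart or each other array in turn was chosen after seeing the data. The replicate numbers did not pair arrays: over 28 pairs with the same number the deviations from group means correlated with a median of 0.078 (-0.243 to 0.343).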

Additional observations from a re-analysis of the deposited data

Results flagged for a closer look

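The highest and lowest array of each of the 3 groups were tested for a gap to the rest (Dixon's 95% value). This was done for each named gene, the members' mean deviation and the astrocyte, microglia and leptomeningeal scores. Other array measures and marker scores were not tested in this way. Of 102 groups tested 15 had such an array. This count cannot be set against a chance rate: the members vary together on the same arrays, and some genes were named for their large SD. Continuous replicate 7 accounted for 12 of them. It lay above the other 9 continuous arrays for Rpl12 (14.24), Rpl13a (13.80), Rpl14 (13.25), Rpl22 (13.42), Rpl35a (14.35), Rpl41 (14.22), Rplp0 (13.74), Rps15a (14.63) and Rps16 (14.43). The same array stood out for the mean deviation of the 43 members (0.129), the astrocyte score (0.306) and the microglia score (0.356). What set this array apart was not tested.

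Rps3 was 14.16 on continuous replicate 3, below the other continuous arrays, whose lowest value was 14.29. Rps3a was 14.28 on limited replicate 6, below the next limited array at 14.42. The leptomeningeal score of continuous replicate 3 was -1.64, against -0.39 on the next array of its group.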

How the results depend on the processing

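The count of ribosomal protein genes past the threshold was 0 in each of the 3 comparisons under all 15 alternatives other than leaving out 1 array, and with each of the 29 arrays left out in turn; the lowest adjusted p was 0.259 among the first (Rpl3l, no filter) and 0.270 among the second. With each array left out, the median change ran between -0.0098 (without continuous replicate 7) and 0.016 (without continuous replicate 3) for continuous ethanol against water, between -0.031 and -0.014 for limited access against water, and between -0.029 and -0.0076 for limited against continuous ethanol. Quantile normalization applied again gave -0.0063, -0.014 and -0.0043 in the same order, with 28, 33 and 26 of 43 members lower in place of 18, 38 and 36. A covariate for the SD of the array gave -0.0025, -0.024 and -0.014, and one for the 3 prime to 5 prime signal 8.4e-05, -0.015 and -0.014. Without water replicate 9 the medians were 0.0011, -0.022 and -0.022, with 19, 39 and 36 members lower. Leaving out the 5 arrays that stood apart in the second component, the medians were 0.015, -0.0038 and -0.024, with 5, 25 and 40 members lower. The median for continuous ethanol against water thus had both signs among these alternatives, and the cause was not tested. Over all probe sets, the calls of that comparison went from 33 to 12 without the 5 arrays. With the array SD as a covariate they went to 10.

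With the replicate block, the replicate number as a factor, the counts stayed at 0 and the medians were 0.0058, -0.024 and -0.022. Since 2 of 29 arrays correlated best with an array of their own number, the numbers were not taken to pair samples.

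For single named genes 1013 recomputed changes kept their direction and their side of the threshold and 36 changed sign, all of changes under 0.02. For limited access against water, leaving out 1 array gave -0.0075 to 0.017 for Rps23, -0.012 to 0.015 for Rpl6, -0.0044 to 0.0057 for Rpl37a and -0.0070 to 0.011 for Rps16. Rpl6 was -0.0038 with the 3 prime to 5 prime covariate, Rpl37a -0.00062 with the replicate block and Rps16 -0.012 with array weights. For limited against continuous ethanol, Rpl12 ran between -0.0059 and 0.035 with 1 array left out and was -0.0020 without the 5 arrays. Rpl7a was -0.0012 with the array SD as a covariate and -0.0012 without the 5 arrays, and Rps16 was -0.0025 with array weights, -0.0058 with the array SD and -0.0044 without the 5 arrays. The cause of these changes of sign was not tested.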

Other observations

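Ribosomal protein probe sets that match several symbols, most of them a gene and its near-identical copies, were not members and their signal cannot be assigned to 1 gene. There were 36 of them, and 0 passed the threshold in any comparison (limma; smallest adjusted p 0.526 for limited against continuous ethanol, 0.198 for continuous ethanol against water and 0.972 for limited access against water). With continuous ethanol 24 were higher than with water and 12 lower, with a median change of 0.012. Of the 36, 2 were higher at an unadjusted p under 0.05, a smaller share than the 9.62% of all probe sets. With limited access 33 of 36 were lower than with water, with a median of -0.022. Against continuous ethanol 33 of 36 were lower with limited access, with a median of -0.032. Here 6 of the 36 were lower at an unadjusted p under 0.05, a larger share than the 5.74% of all probe sets. They lie on the same arrays as the members, so their directions are no independent observation.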
